A study of Homo sapiens with 24 samples.

Results

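The genes described here control the passage from G1 into S phase. They are the D-type cyclins CCND1 and CCND3, their kinases CDK4 and CDK6, the E-type cyclins CCNE1 and CCNE2, the kinase CDK2, the CDK inhibitors CDKN1A (p21) and CDKN1B (p27), and RB1. These 10 genes were picked by symbol from the 26364 genes of the count tables, and all 10 passed the filter on low counts in every comparison. RNA was sequenced from T-47D, an established estrogen receptor-positive luminal breast cancer line, in the form of clones in which the cell's own ESR1 was WT or carried, on one allele, the ligand-binding domain mutation Y537S or D538G. Each genotype was represented by 2 clones, named 1 and 2 (Y537S), A5 and C2 (D538G) and D1 and D4 (WT), and each of 12 conditions held 1 library per clone, 24 in all. WT cells received the mimic negative control or 1 of 3 mimics (miR-181c-5p, miR-301b-3p, miR-331-3p). D538G cells received the same control or the mimic of miR-181c-5p or miR-301b-3p. Y537S cells received the mimic negative control, the miR-301b-3p or miR-331-3p mimic, the inhibitor negative control or the let-7f-5p inhibitor. All cells were kept in hormone-deprived medium, transfected at 10 nM and collected after 24 h, and the labels name no estradiol treatment. Mimics are synthetic RNAs that supply extra miRNA activity, while inhibitors are oligonucleotides that bind and block the cell's own miRNA.

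As background, D-type cyclins carry growth signals into the cell cycle by activating CDK4 and CDK6, which begin the phosphorylation of the RB1 protein. Cyclin E with CDK2 then completes it, and the E2F transcription factors that RB1 holds back switch on the genes of DNA replication, CCNE1 and CCNE2 among them. CDKN1A and CDKN1B bind cyclin-CDK complexes and inhibit CDK2. In estrogen receptor-positive breast cancer CCND1 is a classical estrogen-induced gene, and inhibitors of CDK4 and CDK6 are a standard treatment. A miRNA lowers the mRNAs that pair with its seed, bases 2 to 8 of the mature sequence, mainly through sites in the 3′ untranslated region (3′UTR).

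The mature sequences of the miRNAs studied, from RefSeq, are shown because the seed, in capitals, is what a 3′UTR is searched with. The 4 seeds are different.
miR-301b-3p: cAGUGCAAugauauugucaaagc
miR-331-3p: gCCCCUGGgccuauccuagaa
miR-181c-5p: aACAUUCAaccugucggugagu
let-7f-5p: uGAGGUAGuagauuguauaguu

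The 3′UTR of 1 annotated transcript per gene was searched for the 7 bases complementary to each seed (GENCODE v44 lifted to GRCh37, the build of hg19). Among the 10 genes and 4 seeds there were 4 matches, in CDK4, CDKN1A and CDKN1B. Over the 18656 genes with a 3′UTR, 14.2% held a match to the miR-301b seed, 14.1% to the miR-331 seed, 19.5% to the miR-181c seed and 9.9% to the let-7f seed. The sites in CDKN1A and CDKN1B are shown with the match in capitals, on the strand of the gene, because they are places in these genes where a direct effect of the miRNA on the mRNA could be looked for.
CDKN1A, miR-301b match, chr6:36654711-36654735, plus strand: ctccccagttcaTTGCACTttgatt
CDKN1A, let-7f match, chr6:36654508-36654532, plus strand: ggcaccctagttCTACCTCaggcag
CDKN1B, miR-181c match, chr12:12874694-12874718, plus strand: gcttgggagtttTGAATGTtaagaa

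The let-7f match in CDKN1A is followed by an A, and the other 3 are not. CCND1, CCND3, CCNE1, CCNE2, CDK2, CDK6 and RB1 held no 7-base match to any of the 4 seeds, and that includes the CDK6 3′UTR of 10219 bases. A match is a description of the sequence only. On the same build CCND1 lies at chr11:69455924-69469242 (plus strand), CCND3 at chr6:41902672-42018095 (minus), CCNE1 at chr19:30302898-30315219 (plus), CDK2 at chr12:56360565-56366573 (plus), CDK4 at chr12:58141510-58149796 (minus), CDK6 at chr7:92234235-92465887 (minus), CDKN1A at chr6:36644237-36655114 (plus), CDKN1B at chr12:12838432-12875303 (plus) and RB1 at chr13:48877880-49173572 (plus).

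The libraries held 31379962 to 50526442 counts. In every library the luminal genes KRT8, KRT18, KRT19, EPCAM, CDH1, GATA3 and FOXA1 were abundant, with a sum of 9071 to 14258 CPM (counts scaled to a common library total). Of 5 markers of other cell types, PTPRC, COL1A2 and PECAM1 were at most 0.178 CPM and VIM at most 1.95 CPM. COL1A1, a fibroblast collagen gene, lay at 47.3 to 81.0 CPM with COL1A2 near 0. The summed level of these 5 markers was 51.4 to 72.1 CPM in WT, 47.5 to 77.6 CPM in D538G and 52.5 to 82.4 CPM in Y537S libraries. ESR1 lay at 71.4 to 118 CPM in WT, 114 to 241 CPM in D538G and 89.7 to 291 CPM in Y537S libraries, a level that does not check the point mutation.

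Levels of different genes were compared per kilobase of transcript, as the mean over the 2 clones given the mimic negative control. In WT cells CDK4 was highest at 74.8 CPM per kb, followed by CCND1 at 58.0, CDK2 at 30.6, CDKN1A at 29.2, RB1 at 22.0, CCND3 at 18.2, CCNE2 at 16.8, CDKN1B at 12.0, CCNE1 at 4.92 and CDK6 at 1.54. CDK2 and CDKN1A, neighbours in this order, differed by less than the SD of either over the clones (6.93 and 4.80). CDK4 was the more abundant of the D-cyclin kinases, with a ratio to CDK6 per kilobase of 48.4 ± 1.14 (SD, n = 2) in WT, 59.7 ± 13.3 in Y537S and 96.4 ± 4.42 in D538G cells. The ratio of CCNE2 to CCNE1 per kilobase was 3.43 ± 0.424 in WT, 3.84 ± 0.0548 in D538G and 4.10 ± 0.0703 in Y537S cells. The third D-type cyclin, CCND2, was all but silent, at 0 reads in 19 of 24 libraries and at most 4 reads in the others.

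**Figure D1:**
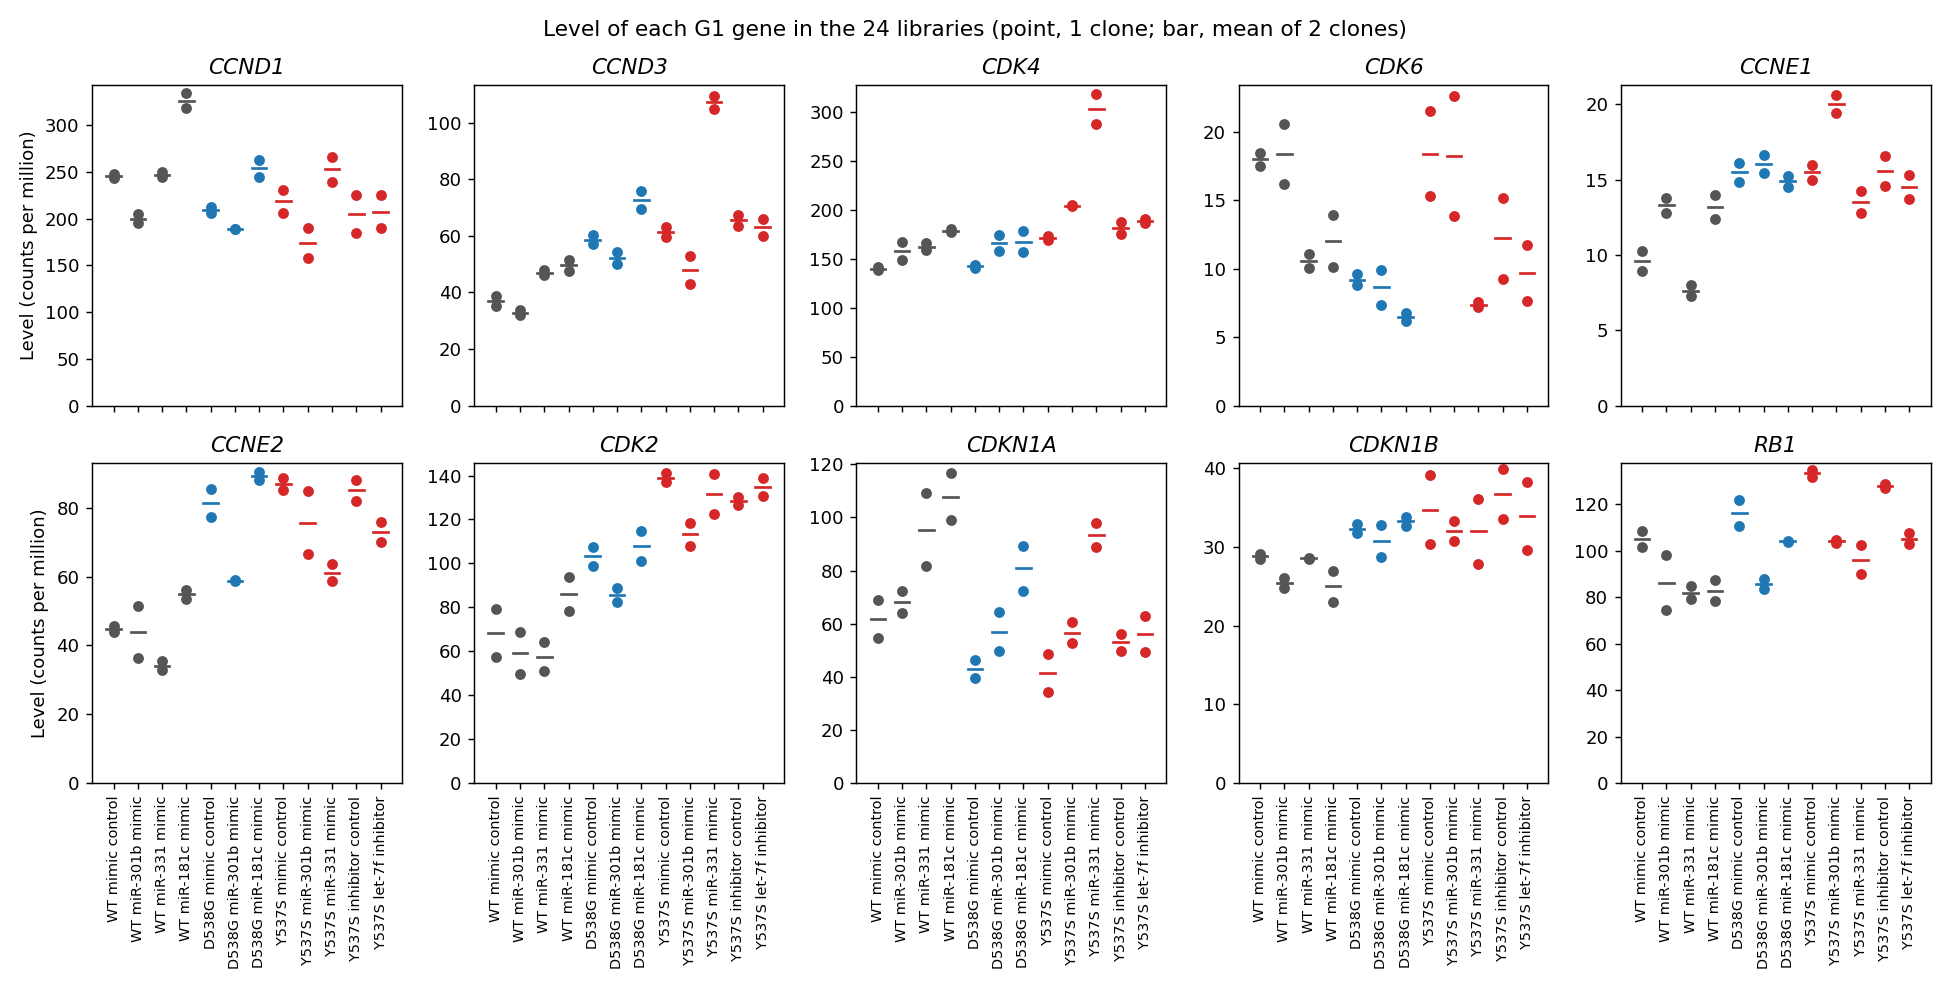
Level of the 10 genes in CPM (vertical axis, from 0) in each of the 12 conditions (horizontal axis); points are the 2 clones, bars their mean, grey WT, blue D538G and red Y537S. CDK4 and CCND3 stand highest in Y537S cells given the miR-331 mimic (287 to 318 and 105 to 109 CPM), where CDK6 lies at 7.21 to 7.55 CPM.

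The first question was how these genes differed between ER genotypes under the mimic negative control. Of the 10 genes, 6 differed between Y537S and WT cells, all higher in Y537S, against 29.0% of all genes tested. Between D538G and WT cells 7 differed, 4 higher and 3 lower in D538G, against 38.9% of all genes, and 2 differed between Y537S and D538G cells, against 6.19%. Both mutants were compared with the same WT libraries. In such bulk RNA, fewer cells in a given phase of the cycle and less RNA per cell cannot be told apart. The calls come from edgeR's quasi-likelihood test adjusted by Benjamini-Hochberg over all genes tested, and with 2 clones a genotype, what belongs to the mutation and what to the individual clones cannot be told apart beyond the spread of those clones.

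The E-type cyclins and CDK2 were higher in both mutants. CCNE2 lay at 45.8 and 44.0 CPM in the WT clones D1 and D4, 77.3 and 85.6 CPM in the D538G clones A5 and C2, and 88.6 and 85.1 CPM in the Y537S clones 1 and 2. Neither mutant overlapped WT. The log2 difference from WT was 0.98 ± 0.09 (SE) for Y537S (adjusted p = 0.000395) and 0.86 ± 0.09 for D538G (adjusted p = 8.97e-05). CCNE1 lay at 8.96 and 10.3 CPM in WT, 14.9 and 16.1 CPM in D538G and 15.98 and 14.99 CPM in Y537S cells. Its difference was 0.72 ± 0.15 for Y537S (adjusted p = 0.0127, and 0.114 without WT clone D1) and 0.69 ± 0.15 for D538G (adjusted p = 0.00539). CDK2, the kinase these cyclins activate, lay at 57.5 and 79.5 CPM in WT, 98.9 and 107 CPM in D538G and 141 and 137 CPM in Y537S cells, so that the 3 genotypes did not overlap. CDK2 differed from WT by 1.05 ± 0.14 in Y537S (adjusted p = 0.00212) and by 0.60 ± 0.13 in D538G cells (adjusted p = 0.00712), and it was higher in Y537S than in D538G cells by 0.45 ± 0.09 (adjusted p = 0.0295). That last call was lost without D538G clone A5 (adjusted p = 0.253) or C2 (adjusted p = 0.104).

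The D-type cyclins differed in direction. CCND3 lay at 35.1 and 38.6 CPM in WT, 57.0 and 60.1 CPM in D538G and 59.5 and 63.3 CPM in Y537S cells, with no overlap of either mutant with WT. The log2 difference was 0.77 ± 0.10 for Y537S (adjusted p = 0.00191) and 0.67 ± 0.09 for D538G (adjusted p = 0.000446). CCND1, the more abundant of the pair, was not higher in the mutants. It lay at 244 and 248 CPM in WT, 207 and 213 CPM in D538G and 207 and 231 CPM in Y537S cells. CCND1 was lower in D538G than in WT cells by a log2 difference of -0.22 ± 0.06 (adjusted p = 0.0225), a call lost without D538G clone A5 (adjusted p = 0.0685), WT clone D1 (0.0736) or WT clone D4 (0.104). In Y537S cells the difference was -0.14 ± 0.08 (adjusted p = 0.247, and 0.0438 without Y537S clone 2). The ratio of CCND1 to CCND3 per kilobase was 3.20 ± 0.182 (SD, n = 2) in WT, 1.71 ± 0.0283 in D538G and 1.70 ± 0.0578 in Y537S cells.

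CDK6 was lower in D538G cells. The kinase lay at 17.5 and 18.5 CPM in WT and 21.5 and 15.3 CPM in Y537S cells, but at 8.84 and 9.60 CPM in the D538G clones. D538G differed from WT by -0.96 ± 0.14 (adjusted p = 0.00064), and Y537S exceeded D538G by 1.02 ± 0.19 (adjusted p = 0.0286). The Y537S difference from D538G was lost without D538G clone A5 (adjusted p = 0.143) or C2 (adjusted p = 0.078), while the difference of D538G from WT kept its call whichever library was left out. Y537S and WT overlapped in CDK6, with a difference of 0.06 ± 0.18 (adjusted p = 0.832). CDK4 lay at 138 and 141 CPM in WT, 141 and 143 CPM in D538G and 173 and 169 CPM in Y537S cells. It was higher in Y537S than in D538G cells by 0.29 ± 0.08 (edgeR, adjusted p = 0.079), a difference called by DESeq2 (0.29, adjusted p = 0.0321). Its difference from WT was 0.32 ± 0.07 in Y537S (adjusted p = 0.0149, and 0.166 without WT clone D1 or 0.126 without D4) and 0.03 ± 0.07 in D538G cells (adjusted p = 0.77).

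The inhibitor CDKN1A lay at 69.1 and 54.7 CPM in WT, 39.4 and 46.2 CPM in D538G and 34.3 and 48.6 CPM in Y537S cells. Both mutants lay below WT. D538G differed by -0.53 ± 0.12 (adjusted p = 0.00883, and 0.0561 without WT clone D1) and Y537S by -0.55 ± 0.18 (adjusted p = 0.0598), with the wider spread of the Y537S clones. The Y537S difference was called by DESeq2, and by edgeR without Y537S clone 2 (-0.82, adjusted p = 0.000264). CDKN1B, the other inhibitor, passed in none of the 3 genotype comparisons (differences of 0.30, 0.17 and 0.12 on the log2 scale), except without Y537S clone 2 (0.47 against WT, adjusted p = 0.00552). RB1 lay at 108 and 101 CPM in WT, 110 and 122 CPM in D538G and 132 and 135 CPM in Y537S cells. It was higher in Y537S than in WT cells by 0.38 ± 0.08 (adjusted p = 0.0116, and 0.0753 without WT clone D1 or 0.147 without D4), and the D538G difference was 0.15 ± 0.08 (adjusted p = 0.178).

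**Figure D2:**
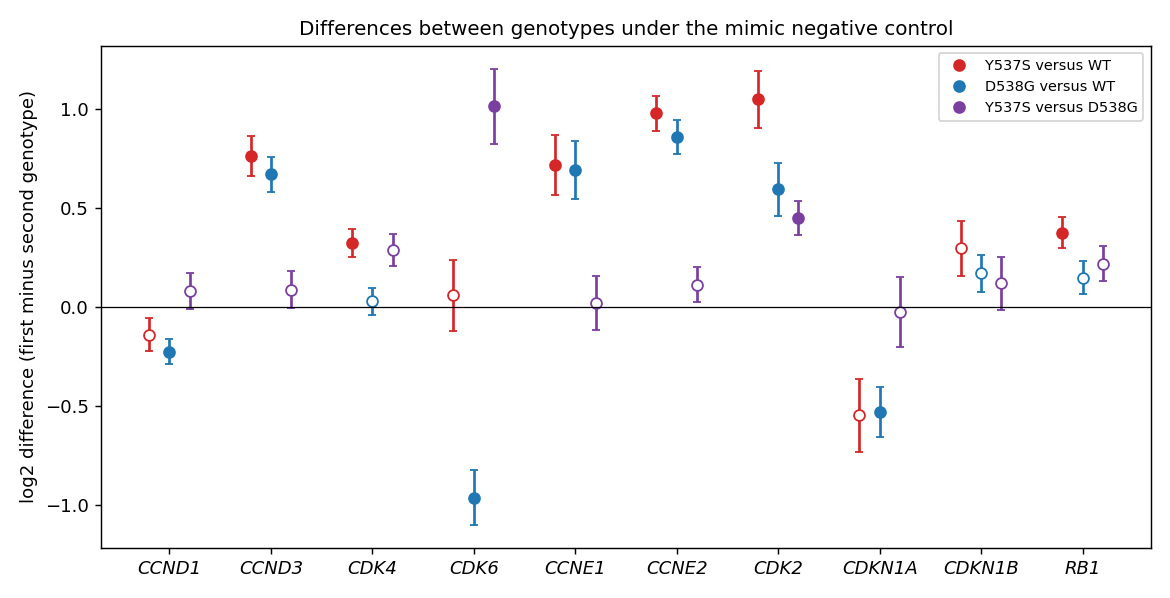
Log2 difference (vertical axis) of each gene (horizontal axis) between genotypes given the mimic negative control, with 2 clones a genotype; bars are standard errors and filled points passed an adjusted p of 0.05. CCND3, CCNE1, CCNE2 and CDK2 are above 0 in both mutants against WT, while CDK6 is below 0 in D538G alone of the mutants.

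The surrounding pathway was read from hand-written lists. Of 23 other G1/S regulators, 22 were tested between Y537S and WT, and 12 were higher and 1 lower in Y537S, against 29.0% of all genes called in either direction (median log2 difference 0.42, against 0.00 over all genes). Of 21 tested between D538G and WT, 10 were higher and 5 lower in D538G, against 38.9% of all genes (median 0.45, against 0.00). The largest differences were in INK4 inhibitors of CDK4 and CDK6 and in an E2F partner. CDKN2C (p18) was higher in Y537S cells by 1.85 ± 0.19 (adjusted p = 0.00066), CDKN2B (p15) was lower by 1.65 ± 0.10 in Y537S (log2 difference -1.65, adjusted p = 0.000119) and by 1.72 ± 0.09 in D538G cells (-1.72, adjusted p = 4.65e-06), and TFDP1, which pairs with E2F proteins on DNA, was higher by 1.51 ± 0.08 in D538G cells (adjusted p = 5.00e-06). Between the mutants, MNAT1, a subunit of the CDK-activating kinase, was higher in Y537S by 0.72 ± 0.10 (adjusted p = 0.0129) and TFDP1 was lower by a difference of -0.56 ± 0.10 (adjusted p = 0.0235). All 16 E2F target genes of S phase, such as MCM2 to MCM7, PCNA, CDC6 and TYMS, were higher in Y537S (median 1.28) and in D538G cells (median 1.18) than in WT. Estrogen-responsive genes were higher in 9 of 11 tested for Y537S (1 lower, median 1.23) and 8 of 11 for D538G (1 lower, median 0.77). The same shares of all genes, 29.0% and 38.9%, stand beside these 2 lists.

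The second question was what each mimic or inhibitor did to these genes, against its matching negative control in clones of the same genotype. A treated and a control library of the same clone share that clone and can be paired, so counts are given both without the clone as a block and with it. The blocked fit leaves 1 residual degree of freedom per gene. Fits with and without the block both lean on the spread shared across genes, to a degree that varies between comparisons. With the block, CCND1 under miR-301b changed by -0.36 ± 0.06 in Y537S (unadjusted p = 4.36e-09) and -0.31 ± 0.05 in WT cells (2.98e-05). Blocked p-values are therefore not compared between genotypes. A further alternative removed each library's trend with GC content before the fit, called the GC correction here, and is given where it changes a call.

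The miR-331 mimic gave 6 of 10 genes a call in Y537S cells, against 33.0% of all genes tested, and 7 with the block, against 60.7%. In WT cells it gave 6, against 24.8%, and 7 with the block, against 37.0%. In WT cells the miR-181c mimic gave 7, against 16.4%, and 9 with the block, against 27.9%. In D538G cells it gave 3, against 9.52%, and 5 with the block, against 29.3%. The miR-301b mimic gave 2 in D538G cells, against 11.8%, and 5 with the block, against 33.3%. In WT cells it gave 1, against 8.5%, and 5 with the block, against 28.2%. In Y537S cells miR-301b gave none in edgeR without the block, against 3.57%, where 6 genes had an unadjusted p under 0.05 and DESeq2 called 2 (CDK2 and RB1). With the block it gave 8, against 38.4%. The let-7f inhibitor gave none of the 10 by edgeR or DESeq2, against 0.0% of all genes in edgeR, where CCNE2 and RB1 had an unadjusted p under 0.05. With the block it gave 2, against 11.2%.

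The background shares differed widely between treatments. For the let-7f inhibitor edgeR called no gene of 15140, 786 had an unadjusted p under 0.05 and DESeq2 called 89. Comparisons in the same genotype share their negative control libraries, so the values of different mimics are not independent of each other. Both clones moved the same way for all 10 genes under the miR-331 mimic in Y537S cells and the miR-181c mimic in both genotypes. They did so for 7 or 8 genes in each of the other 5 comparisons. The share of all tested genes that did so was not computed, so these counts are not read as a trait of the 10 genes.

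**Figure D3:**
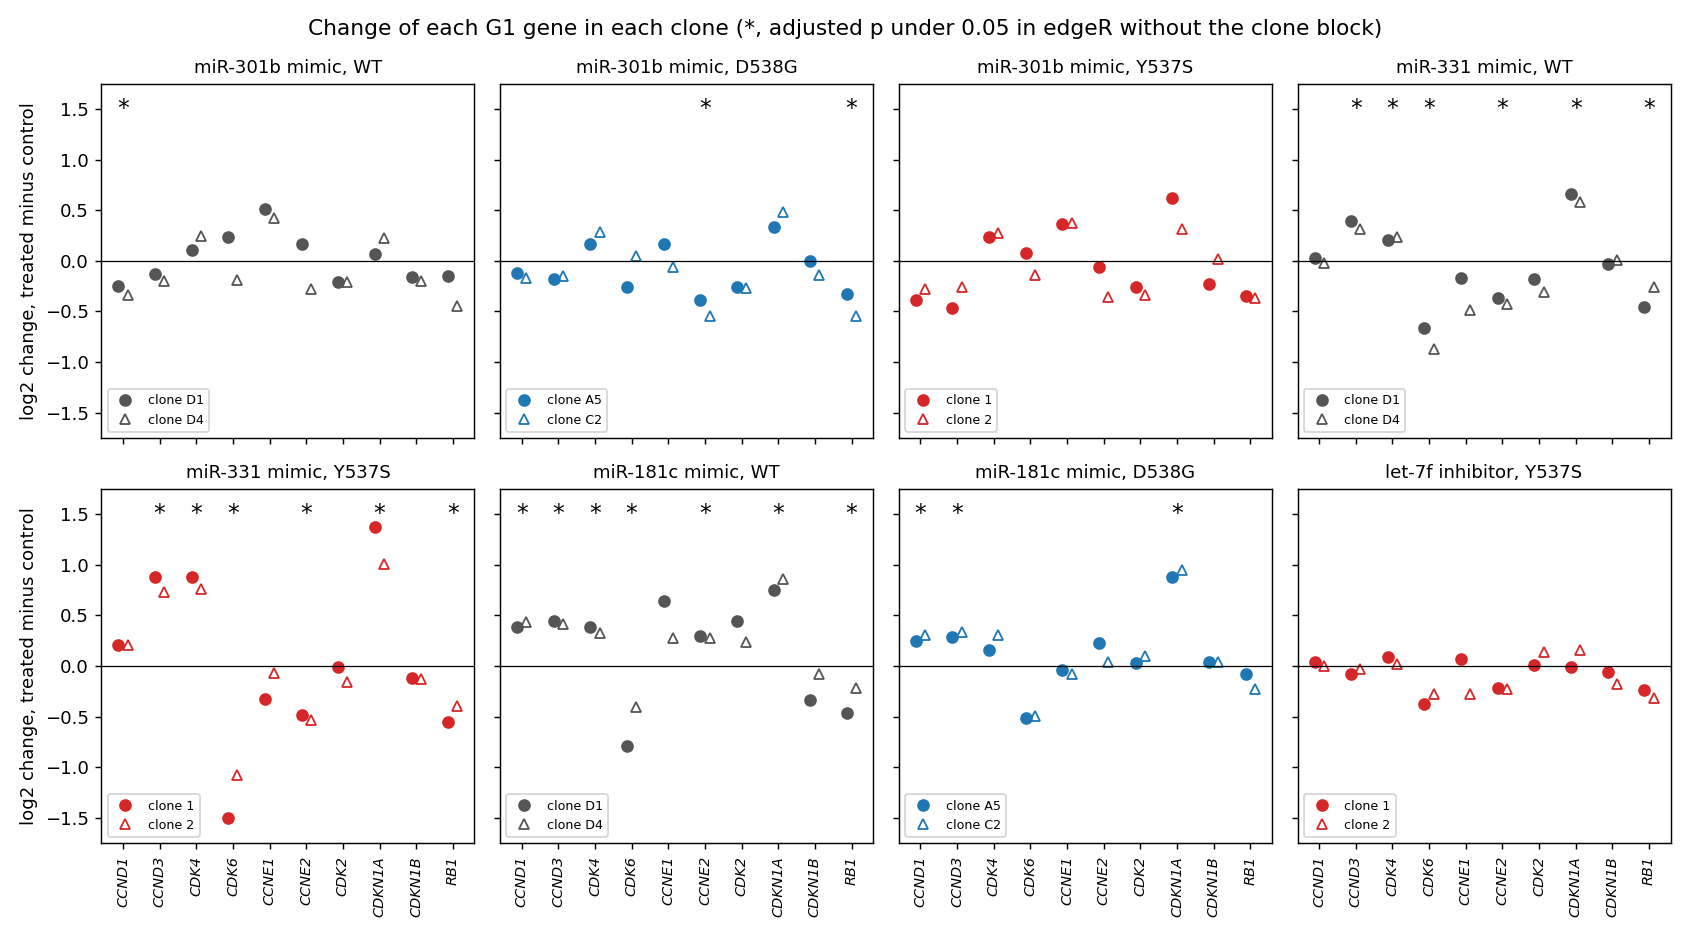
Change in log2 CPM from the negative control (vertical axis) of each gene (horizontal axis) in each clone, by treatment and genotype; filled circles and open triangles are the 2 clones, and a star marks an adjusted p under 0.05 in edgeR without the clone block. CDKN1A rose by 1.37 and 1.01 and CDK6 fell by 1.51 and 1.08 in the Y537S clones given the miR-331 mimic.

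Among the D-type cyclins, CCND3 rose under miR-331. In Y537S clones 1 and 2 it went from 59.5 and 63.3 CPM to 109 and 105 CPM, the highest levels of any condition (log2 fold change 0.83 ± 0.09, adjusted p = 0.00627). In WT clones D1 and D4 it went from 35.1 and 38.6 CPM to 46.0 and 47.9 CPM (0.38 ± 0.08, adjusted p = 0.00729, and 0.0513 without the treated library of D4). Treated and control libraries did not overlap in either genotype. The miR-181c mimic also raised CCND3, to 69.4 and 75.7 CPM in D538G clones A5 and C2 from 57.0 and 60.1 CPM (0.32 ± 0.08, adjusted p = 0.0428) and to 47.7 and 51.6 CPM in WT (0.42 ± 0.09, adjusted p = 0.0136). The D538G call was lost when any of the 4 libraries was left out (adjusted p 0.0598 to 0.251), and the WT call without control D1 (0.131) or treated D4 (0.0671). Under miR-301b the change in CCND3 was -0.38 ± 0.13 in Y537S, -0.16 ± 0.09 in D538G and -0.18 ± 0.10 in WT cells. Only the Y537S value passed with the block and no GC correction (adjusted p = 0.15 without the block and 1.41e-05 with it). After the GC correction without the block the changes were -0.61 in Y537S (adjusted p = 0.125), -0.39 in D538G (0.0826) and -0.39 in WT cells (0.0337, called).

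CCND1 changed less. The miR-181c mimic raised it from 244 and 248 CPM to 319 and 335 CPM in WT cells (0.40 ± 0.07, adjusted p = 0.00389), which kept the call whichever library was left out, and from 207 and 213 CPM to 245 and 263 CPM in D538G cells (0.29 ± 0.07, adjusted p = 0.0354), which lost it without any 1 of the 4 libraries (0.0568 to 0.217). The miR-301b mimic lowered CCND1 in WT cells to 205 and 195 CPM (-0.31 ± 0.07, adjusted p = 0.037). That call was lost without control D1 (0.211), control D4 (0.215) or treated D4 (0.0651). In Y537S cells miR-301b gave 158 and 190 CPM against 207 and 231 CPM, without overlap (-0.35 ± 0.12, adjusted p = 0.165, and 6.14e-08 with the block). In D538G cells the change was -0.14 ± 0.08 (adjusted p = 0.249, and 0.0733 with the block and no GC correction). The miR-331 mimic moved CCND1 by 0.24 ± 0.11 in Y537S (adjusted p = 0.156, and 0.00048 with the block) and 0.03 ± 0.06 in WT cells (adjusted p = 0.726).

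The kinases of the D-type cyclins went in opposite directions under miR-331. CDK4 rose from 173 and 169 CPM to 318 and 287 CPM in Y537S cells (0.85 ± 0.09, adjusted p = 0.00618). In WT cells it rose from 138 and 141 CPM to 159 and 166 CPM (0.24 ± 0.06, adjusted p = 0.0137). Neither genotype had overlapping groups, but the WT call was lost without control D1 (0.0573), treated D1 (0.0674) or treated D4 (0.111). CDK6 fell from 21.5 and 15.3 CPM to 7.55 and 7.21 CPM in Y537S cells (-1.29 ± 0.21, adjusted p = 0.0101) and from 17.5 and 18.5 CPM to 11.1 and 10.1 CPM in WT cells (-0.74 ± 0.12, adjusted p = 0.00186). Both CDK6 calls, and the CDK4 call in Y537S cells, held whichever library was left out. CDK6 has no match to the miR-331 seed in its 3′UTR. The ratio of CDK4 to CDK6 per kilobase went from 59.7 ± 13.3 to 256 ± 10.4 (SD, n = 2) in Y537S and from 48.4 ± 1.14 to 96.3 ± 9.53 in WT cells.

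Under miR-181c, CDK4 reached 180 and 177 CPM in WT cells (0.35 ± 0.07, adjusted p = 0.00861, and 0.0885 without control D1 or 0.0608 without control D4), and 157 and 178 CPM in D538G cells from 141 and 143 CPM (0.25 ± 0.08, adjusted p = 0.088, and 0.000408 with the block). CDK6 fell in WT cells to 10.1 and 14.0 CPM (-0.59 ± 0.16, adjusted p = 0.0337), a call lost without control D1 (0.0849), control D4 (0.128) or treated D1 (0.136). In D538G cells CDK6 went from 8.84 and 9.60 CPM to 6.18 and 6.80 CPM, the lowest levels measured (-0.50 ± 0.17, adjusted p = 0.104, 0.0133 with the block, and 0.169 when block and GC correction were combined). The miR-301b mimic left CDK6 with changes of -0.03 ± 0.27, -0.08 ± 0.19 and 0.03 ± 0.14 in Y537S, D538G and WT cells, and in each genotype the clones went opposite ways. CDK4, whose 3′UTR holds a miR-301b match, was not lower under the miR-301b mimic. Its changes were 0.23 ± 0.08 in Y537S, 0.23 ± 0.08 in D538G and 0.17 ± 0.08 in WT cells, none called without the block (adjusted p 0.161, 0.102 and 0.234) and all 3 called as rises with it (0.000473, 0.00287 and 0.0382).

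In the edgeR fits without the GC correction, CCNE1 changes were positive and CCNE2 changes negative under miR-301b in each genotype. Under miR-331 the changes of both E-type cyclins were negative in Y537S and WT cells. CCNE2 fell under miR-331 from 88.6 and 85.1 CPM to 63.5 and 58.7 CPM in Y537S cells (-0.48 ± 0.09, adjusted p = 0.0158) and from 45.8 and 44.0 CPM to 35.3 and 32.8 CPM in WT cells (-0.37 ± 0.08, adjusted p = 0.0072), with no overlap. With the trend on GC content removed the Y537S change turned to 0.23 (adjusted p = 0.211, and 0.22 with 0.00771 in the fit with the block, a call as a rise) and the WT change shrank to -0.14 (0.329). The Y537S call was lost without either control (0.0934 and 0.0525) or treated clone 2 (0.0599), and the WT call without treated D4 (0.0733). Under miR-301b CCNE2 fell in D538G cells from 77.3 and 85.6 CPM to 58.9 and 58.6 CPM (-0.47 ± 0.09, adjusted p = 0.0137, and 0.0625 without control C2), a change of -0.06 (0.805) after the GC correction. In WT cells the clones split, 51.5 and 36.4 CPM against 45.8 and 44.0 CPM (-0.04 ± 0.15, adjusted p = 0.908), and in Y537S cells the change was -0.22 ± 0.13 (adjusted p = 0.356, and 0.00311 with the block). That value also turned positive after the GC correction, to 0.13 (adjusted p = 0.694, and 0.09 with the block). In WT cells CCNE2 rose under the miR-181c mimic to 56.1 and 53.5 CPM (0.28 ± 0.08, adjusted p = 0.0435), a call lost without any 1 library (0.0913 to 0.247). That WT rise was not called by DESeq2 (adjusted p = 0.0515) or by edgeR in 1 fit over all conditions of the genotype (0.148). In D538G cells the change was 0.14 ± 0.08 (adjusted p = 0.313).

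CCNE1 had no call in any treatment in the edgeR fit of each comparison's own libraries without the block. In 1 fit over all conditions of the genotype it was called as a rise in WT cells under miR-301b (0.48, adjusted p = 0.0437) and miR-181c (0.47, adjusted p = 0.04), and with no filter on low counts under miR-301b in WT (adjusted p = 0.0467). Its values under miR-301b lay above control in WT cells (12.8 and 13.8 against 8.96 and 10.3 CPM) and in Y537S cells (20.6 and 19.5 against 15.98 and 14.99 CPM), with log2 changes of 0.46 ± 0.15 (adjusted p = 0.0886, and 0.0146 with the block) and 0.35 ± 0.13 (0.178, and 0.00819 with the block). In D538G cells the change was 0.06 ± 0.14. Under miR-181c CCNE1 changed by 0.45 ± 0.15 in WT cells (adjusted p = 0.071, and 0.018 with the block) and by -0.05 ± 0.13 in D538G cells. Under miR-331 its changes were -0.17 ± 0.15 in Y537S (adjusted p = 0.426) and -0.30 ± 0.16 in WT cells (0.182), neither called with the block.

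CDK2 had no call in that edgeR fit either, while DESeq2 called it as a fall under miR-301b in Y537S (-0.31, adjusted p = 0.0393), and edgeR with no filter on low counts called it under miR-301b in D538G (adjusted p = 0.0452) and under miR-331 and miR-181c in WT cells (0.0224 and 0.0071). With the block it fell under miR-301b in all 3 genotypes, by log2 changes of -0.32 in Y537S (adjusted p = 3.36e-06), -0.26 in D538G (adjusted p = 0.00199) and -0.22 in WT cells (adjusted p = 0.0268). In Y537S cells this was 118 and 108 CPM against 141 and 137 CPM. After adding the GC correction to the block, the WT call was lost (-0.15, adjusted p = 0.107) and the other 2 were kept. With the block CDK2 also fell under miR-331 in WT cells (-0.22, adjusted p = 0.00818, and -0.12 with 0.151 after the GC correction) and rose under miR-181c in WT cells (0.33, adjusted p = 0.00164), where clone D1 went from 57.5 to 78.3 CPM and clone D4 from 79.5 to 93.7 CPM. Without the block CDK2 gained a call under miR-331 in WT cells without control D1 (-0.45, adjusted p = 0.017) and under miR-181c without control D4 (0.56, 0.0298) or treated D1 (0.45, 0.0377).

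CDKN1A was the inhibitor that moved. The miR-331 mimic raised it from 34.3 and 48.6 CPM to 88.8 and 98.0 CPM in Y537S cells (1.20 ± 0.18, adjusted p = 0.0094) and from 69.1 and 54.7 CPM to 109 and 81.6 CPM in WT cells (0.65 ± 0.13, adjusted p = 0.00527, and 0.0598 without treated D1). The miR-181c mimic raised it from 39.4 and 46.2 CPM to 72.4 and 89.3 CPM in D538G cells (0.93 ± 0.12, adjusted p = 0.00335) and to 117 and 99.0 CPM in WT cells (0.79 ± 0.12, adjusted p = 0.00185). In these 4 comparisons the treated and control libraries did not overlap, and all but the WT miR-331 call held whichever library was left out. Under miR-301b, whose seed has a match in the CDKN1A 3′UTR, CDKN1A was not lower. It lay at 52.8 and 60.5 CPM in Y537S (0.43 ± 0.18, adjusted p = 0.234, and 2.02e-06 with the block), 49.7 and 64.4 CPM in D538G (0.42 ± 0.13, adjusted p = 0.0679, and 1.2e-05 with the block) and 72.5 and 64.1 CPM in WT cells (0.13 ± 0.12, adjusted p = 0.526). The D538G call was gained without control C2 (adjusted p = 0.0076) or treated A5 (0.0119). DESeq2, with every library kept, called that D538G rise (0.42, adjusted p = 0.0263). Blocking let-7f, the other miRNA with a match in the CDKN1A 3′UTR, left CDKN1A at 49.5 and 62.7 CPM against 49.9 and 56.3 CPM in the inhibitor controls (0.08 ± 0.14, adjusted p = 1).

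CDKN1B had no call in any of the 8 treatment comparisons, with or without the block. Its log2 changes ran from -0.21 ± 0.11 (miR-181c, WT) to 0.05 ± 0.10 (miR-181c, D538G). The miR-181c seed has a match in its 3′UTR. Over the 24 libraries CDKN1B spanned 23.0 to 39.9 CPM, a ratio of 1.73 from lowest to highest, the narrowest range of the 10 genes, while CDK6 spanned 6.18 to 22.6 CPM, a ratio of 3.66, the widest.

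RB1 fell under miR-331 from 132 and 135 CPM to 89.7 and 102 CPM in Y537S cells (-0.45 ± 0.11, adjusted p = 0.03) and from 108 and 101 CPM to 79.1 and 84.5 CPM in WT cells (-0.33 ± 0.07, adjusted p = 0.00506). It fell under miR-181c in WT cells to 78.3 and 87.1 CPM (-0.35 ± 0.08, adjusted p = 0.0192) and under miR-301b in D538G cells from 110 and 122 CPM to 87.6 and 83.5 CPM (-0.43 ± 0.09, adjusted p = 0.0166). None of these calls held after the GC correction, where the change under miR-331 in Y537S turned to 0.11 (adjusted p = 0.407), and the others shrank to -0.11 for miR-331 in WT (0.283), -0.10 for miR-181c in WT (0.475) and -0.11 for miR-301b in D538G (0.527). No treated library overlapped its controls in these comparisons, yet each call was lost without at least 1 library. Those were both controls or treated clone 1 for Y537S under miR-331 (adjusted p 0.0847, 0.116 and 0.115), treated D1 for WT under miR-331 (0.0764), both controls or treated D1 for miR-181c (0.153, 0.0567 and 0.0663), and control C2 or treated C2 for D538G (0.0804 and 0.0615). The remaining changes in RB1 were -0.38 ± 0.08 for miR-301b in Y537S (adjusted p = 0.0685, and 5.09e-08 with the block), -0.29 ± 0.13 for miR-301b in WT (0.187, and 0.00791 with the block, and -0.50 with 0.00315 without treated D1), -0.15 ± 0.08 for miR-181c in D538G (0.286, and 0.0802 with the block) and -0.28 ± 0.07 for the let-7f inhibitor (0.787, and 0.000259 with the block). Block and GC correction together shrank the miR-301b changes to -0.09 in Y537S (adjusted p = 0.188) and -0.07 in WT cells (0.457), so that neither was called, and the let-7f change to -0.13 (0.0294). Without the block, RB1 under miR-301b in Y537S was called by DESeq2 (-0.37, adjusted p = 0.00559) and in 1 fit over all conditions (-0.38, 0.0236). In such a fit RB1 under miR-181c in WT cells lost its call (-0.33, adjusted p = 0.0707). For the let-7f inhibitor RB1 lay at 107 and 103 CPM against 127 and 128 CPM.

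The let-7f inhibitor otherwise moved these genes little. CCNE2 lay at 75.8 and 70.1 CPM against 88.1 and 82.1 CPM in its control (-0.22 ± 0.08, adjusted p = 0.923, 0.00536 with the block, and a change of 0.01 with 0.959 after block and GC correction). CDK6 lay at 11.7 and 7.65 CPM against 15.2 and 9.28 CPM (-0.34 ± 0.32, adjusted p = 1, and 0.0847 with the block), below the 21.5 and 15.3 CPM that the same clones had with the mimic control. CCND1, CCND3, CDK2, CDK4, CDKN1A and CDKN1B changed by -0.12 to 0.08 and CCNE1 by -0.11 ± 0.15.

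Base composition moved with these changes. The mRNAs of CCND3 (60.0% GC) and CDKN1A (57.3%) are GC-rich, and those of CCNE2 (34.6%), RB1 (37.1%) and CDK6 (39.7%) are GC-poor. For miR-331 in Y537S cells, the fifth of all tested genes with the lowest GC content had a median log2 fold change of -0.40 and the fifth with the highest one of 0.50. The 2 medians were -0.18 and 0.39 for miR-331 in WT, -0.19 and 0.29 for miR-181c in WT, -0.15 and 0.31 for miR-181c in D538G, -0.23 and 0.29 for miR-301b in Y537S, -0.26 and 0.31 for miR-301b in D538G, and -0.18 and 0.30 for miR-301b in WT cells. They were -0.11 and 0.01 for the let-7f inhibitor, and 0.02 and 0.02 between Y537S and WT controls. With the trend of each library on GC content removed, CCNE2 and RB1 under miR-331 in Y537S cells changed sign, to 0.23 (adjusted p = 0.211, and 0.00771 with the block) and 0.11 (0.407, and 0.139 with the block). Beside the RB1 and CCNE2 calls given above, CCND3 lost its calls under miR-331 in WT (from 0.38 to 0.12, adjusted p = 0.348), under miR-181c in WT (from 0.42 to 0.21, 0.165) and under miR-181c in D538G cells (from 0.32 to 0.11, 0.613). CCND1 under miR-181c in D538G (from 0.29 to 0.31, adjusted p = 0.065), CDK6 under miR-181c in WT (from -0.59 to -0.39, 0.202) and CDKN1A under miR-331 in WT cells also lost theirs.

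CDK4 (0.72), CDK6 (-0.89), CDKN1A (0.89) and CCND3 (0.46) kept their calls and directions after this correction under miR-331 in Y537S cells (adjusted p 0.0126, 0.0426, 0.0329 and 0.029). In WT cells CDK4 (0.25) and CDK6 (-0.53) kept theirs under miR-331 (adjusted p 0.0226 and 0.0279), where CDKN1A gave 0.50 (0.056). Under miR-181c CCND1 (0.40), CCNE2 (0.58), CDK4 (0.31) and CDKN1A (0.64) kept theirs in WT cells (adjusted p 0.00459, 0.0021, 0.0139 and 0.00893) and CDKN1A (0.79) in D538G cells (0.0247). Under miR-301b CCND1 kept its call in WT cells (-0.29, adjusted p = 0.0404) and CCND3 gained one (-0.39, adjusted p = 0.0337). Genotype differences moved little, with RB1 in D538G against WT the single added call (0.19, adjusted p = 0.0488).

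**Figure D4:**
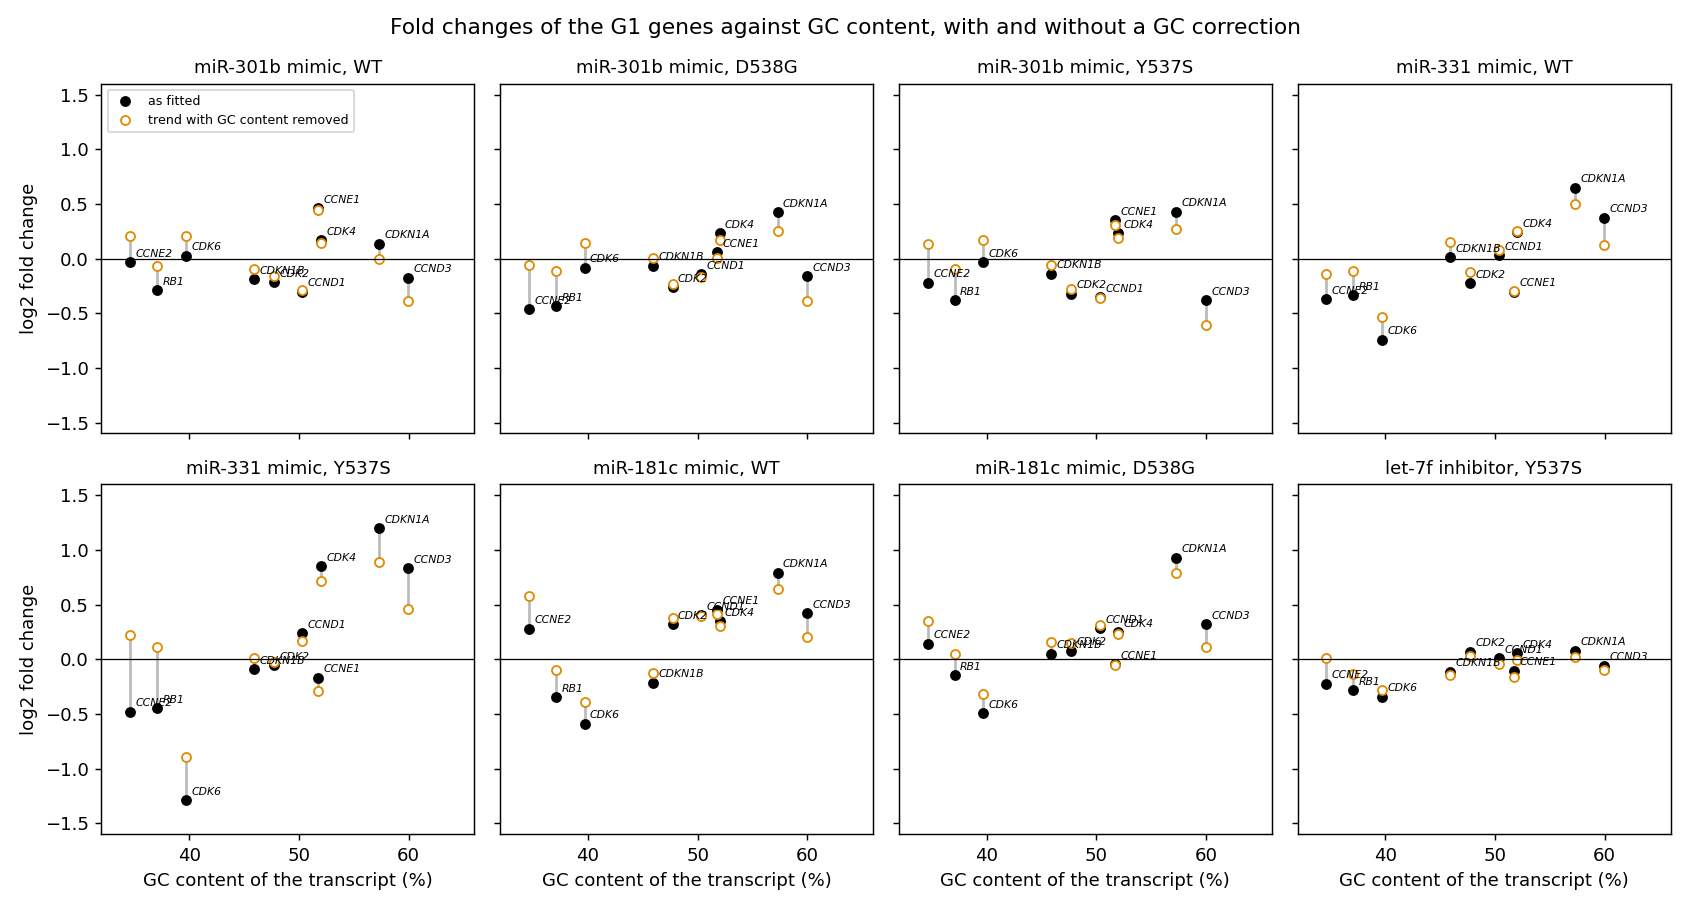
Log2 fold change (vertical axis) of each gene against the GC content of its transcript in percent (horizontal axis), by treatment and genotype; black points are the values as fitted and open orange points those after removing each library's trend with GC content. CCNE2 and RB1, at the left, move from -0.48 and -0.45 to 0.23 and 0.11 under miR-331 in Y537S cells, while CDK4 goes from 0.85 to 0.72.

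The counts, medians and named genes of the lists under each treatment come from the edgeR fit without the block or the GC correction. No GC-corrected values are given for them, and how far the trend with GC content enters them was not tested. Of the other G1/S regulators, 22 of 23 listed were tested. Under miR-301b 1 fell in Y537S, against 3.57% of all genes called in either direction, 1 rose and 2 fell in D538G, against 11.8%, and 1 rose in WT cells, against 8.5%. MYC, a driver of G1 entry, fell by 0.85 ± 0.12 in Y537S cells (log2 fold change -0.85, adjusted p = 0.0306). In D538G cells MYC fell by 0.73 ± 0.12 (-0.73, adjusted p = 0.00749), and in WT cells its change was -0.28, not called. These changes are not read as different between genotypes, since no value for that difference is given for MYC. E2F2 rose in WT cells (0.66 ± 0.13, adjusted p = 0.0205). CDKN1C (p57) was called as a rise in D538G cells on 34 and 19 reads against 3 and 0 in the controls, so that its fitted fold depends on the prior count.

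Under miR-331, 3 rose and 3 fell in Y537S, against 33.0% of all genes, and 4 rose and 3 fell in WT cells, against 24.8%. Both counts lie near those shares. MNAT1 fell by 1.05 ± 0.12 (-1.05, adjusted p = 0.00618) in Y537S and by 0.68 ± 0.09 (-0.68, adjusted p = 0.000531) in WT cells, CDC25A, a phosphatase that activates CDK2, fell by 0.87 ± 0.13 in WT cells (-0.87, adjusted p = 0.00115), and E2F2 rose by 0.62 ± 0.14 in Y537S cells (adjusted p = 0.0261). Under miR-181c, 2 rose and 1 fell in D538G, against 9.52%, and 6 rose and 1 fell in WT cells, against 16.4%. E2F2 rose by 0.76 ± 0.10 in D538G (adjusted p = 0.00413) and 1.00 ± 0.12 in WT cells (adjusted p = 0.000548), and E2F5, a repressive family member, fell by 0.71 ± 0.16 (-0.71, adjusted p = 0.0224) and 1.09 ± 0.17 (-1.09, adjusted p = 0.00232). None of the 22 was called for the let-7f inhibitor by edgeR, which called no gene in that comparison.

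E2F target genes of S phase gave 7 rises and no fall among 16 under miR-331 in Y537S, against 33.0% of all genes called (median 0.23, against -0.01 over all genes), and 3 rises and 4 falls in WT cells, against 24.8% (median -0.11, against 0.00). Under miR-181c they gave 6 rises in WT, against 16.4% (median 0.27), and 2 in D538G cells, against 9.52% (median -0.08). Under miR-301b they gave 1 fall in Y537S, against 3.57% (median -0.06), 2 falls in D538G, against 11.8% (median -0.12), and 4 rises in WT cells, against 8.5% (median 0.07). Members split within a comparison. Under miR-331 in Y537S cells TK1 (1.09) and CDT1 (1.07) rose, while CCNA2 (-0.09) and PCNA (-0.14) were not called.

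Estrogen-responsive genes, listed beside CCND1, gave 5 falls of 12 tested under miR-301b in Y537S, against 3.57% of all genes called (median -0.48), 6 falls of 11 in D538G, against 11.8% (median -0.48), and 2 falls of 10 in WT cells, against 8.5% (median -0.20). Under miR-181c they gave 5 falls of 11 in D538G, against 9.52% (median -0.28), and 4 of 10 in WT cells, against 16.4% (median -0.31), where CCND1 rose. Under miR-331 they gave 2 rises and 2 falls of 12 in Y537S, against 33.0%, and 1 rise and 1 fall of 11 in WT cells, against 24.8%. The median over all genes lay between -0.01 and 0.01 in these comparisons.

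The third question was whether a response differed between genotypes, tested as the difference of log2 fold changes. Under miR-331, 1 of 10 genes differed between Y537S and WT cells, against 9.94% of all genes tested. That count lies at the share of all genes. The gene was CDK4, whose rise was larger in Y537S by 0.59 ± 0.10 (adjusted p = 0.0129). The call was lost without any 1 of the 4 WT libraries (adjusted p 0.0574 to 0.091) and held without any of the Y537S libraries. With the block 5 genes differed, against 34.1% of all genes. They were CDK4, CCND1 (0.19, adjusted p = 0.0414), CCND3 (0.44, 0.0011), CDK6 (-0.55, 0.0211) and CDKN1A (0.56, 0.000208), each moving further in Y537S than in WT cells. DESeq2 called CDK4 and CCND3 (0.48, adjusted p = 0.015). When block and GC correction were combined, CCND1 (0.08, adjusted p = 0.359) and CDK6 (-0.37, 0.137) lost their calls and CCNE2 also differed, at 0.32 (adjusted p = 0.0142), where the fit without either gave -0.12 ± 0.12 (adjusted p = 0.562).

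No member was called for a different response to miR-301b or miR-181c, by edgeR with or without the block or by DESeq2. For miR-301b in Y537S against WT edgeR called 0.00632% of all genes and no member had an unadjusted p under 0.05. In D538G against WT it called 0.0064%, and CCNE2 had an unadjusted p under 0.05 (difference -0.43 ± 0.19). For miR-181c in D538G against WT it called 0.00646%, and CCNE1 had an unadjusted p under 0.05 (-0.49 ± 0.20). Between Y537S and D538G for miR-301b it called 0.0%, none of 15581 genes, with 180 at an unadjusted p under 0.05, none of them members, and DESeq2 called 1 gene.

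For 5 of the genes, those with the most similar profile were taken over the 12 condition means of log2 CPM, among 10064 well-expressed genes. CCNE2 went with LIN9 (Pearson r = 0.968), ATAD2 (0.967) and ORC6 (0.967). RB1 went with TPMT (0.975), TBC1D12 (0.974) and MALT1 (0.958), and CDK6 with FZD3 (0.948), SAV1 (0.921) and KIF21A (0.919). CCND1 went with MRAS (0.952), ZFAT (0.952) and ZSCAN25 (0.943), and CDKN1A with ZNF282 (0.964), CSRNP1 (0.947) and CLDN4 (0.942). The 12 points share genotypes, clones and controls, and the r values describe these libraries only. The log2 CPM were not corrected for the trend with GC content, and whether that trend shapes these profiles was not tested.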

How the data were processed

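Poly-A RNA-seq libraries were made with a stranded kit and sequenced on an Illumina NovaSeq. The authors aligned reads to hg19 with HISAT2, handled files with SAMtools and assigned reads to UCSC Known Genes with featureCounts (Subread). Their tool versions and settings for strand and multi-mapping reads are not given in the sources used here. The values deposited are raw counts per gene, not normalized, in 3 tables of 26364 genes. The 24 library totals ran from 31379962 to 50526442 (median 39878595). For D538G and WT, the clone names in the column headings could not be joined to the labels' numbered clones, so columns were assigned to conditions only. Some labels transpose the digits of Y537S, which the titles give.

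Counts were tested with edgeR 4.0.16 in R 4.3.3 (TMM, filterByExpr at its defaults, quasi-likelihood F test, two-sided), on the libraries of each comparison, with Benjamini-Hochberg adjustment over all genes tested and a threshold of 0.05. The standard error is the log2 fold change divided by the square root of F. An exact permutation test of 2 against 2 cannot go below p = 0.333, so none was used. CPM used TMM factors over all 24 libraries, and log2 CPM a prior count of 2. Treated and control libraries were paired by the clone they share. The clone difference in treated and control libraries correlated across genes at 0.54 to 0.59 in Y537S, 0.24 to 0.25 in D538G and 0.17 to 0.24 in WT cells. Alternatives were DESeq2 1.42.0, DESeq2-type size factors, no filter, 1 fit over every condition of the genotype, a GC correction (lowess, span 0.3, 94.2% of tested genes with a GC value), a block by clone, both of these together, miR-301b mimic libraries for genotype differences, and leaving out each library. The edgeR fit was run with and without the block on simulated counts that held no trend with GC content. A bound on false calls was checked only without the block, and the GC correction was not tested this way. Tables were handled with Python 3.11.15.

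For GC content, length and 3′UTRs, 20651 genes matched the annotation by symbol and 1373 by an older symbol. The authors counted on a different annotation. The members, gene lists and tests were chosen with earlier results of these data known. The genes named are all 10 members, the 2 other G1/S regulators with the largest called change in each comparison, and, for each of CCND1, CCNE2, CDK6, CDKN1A and RB1, the 3 genes with the highest Pearson correlation over the 12 condition means, among genes averaging at least 3 log2 CPM. List members named as examples beyond these were chosen after their values were seen. The results of 1 gene list and the sequence of 1 matched site are not reported here.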

Additional observations from a re-analysis of the deposited data

Results flagged for a closer look

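CDK4 was the 1 member whose response to a mimic differed between genotypes by edgeR's test of the difference without the clone block. For miR-331, 9.94% of all genes differed in that test, so 1 of 10 lies at the share of all genes. With the block 5 members differed under miR-331 (CCND1, CCND3, CDK4, CDK6 and CDKN1A), against 34.1% of all genes. With block and GC correction 4 differed (CCND3, CCNE2, CDK4 and CDKN1A). DESeq2 called 2 (CCND3, adjusted p = 0.015, and CDK4), among 2401 genes in all. The CDK4 rise under the miR-331 mimic was larger in Y537S than in WT cells by 0.59 ± 0.10 on the log2 scale (edgeR, adjusted p = 0.0129). Its changes were 0.88 and 0.76 in the Y537S clones and 0.20 and 0.24 in the WT clones. The adjusted p was 0.0574, 0.091, 0.0863 and 0.0607 without each of the 4 WT libraries in turn, and 0.0269 with the trend on GC content removed.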

How the results depend on the processing

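Counts below are of the 10 members called. The number of all genes called moved with the setting too. For miR-301b in Y537S cells it was 541 of 15145 in edgeR without the block, 1797 in DESeq2 and 5819 with the block. In D538G cells the share of all genes was 11.8% without and 33.3% with the block. Shares for the GC correction, no filter, 1 fit over all conditions and left-out libraries are not given. A count that differs between settings is therefore not read as a trait of these genes. For miR-301b in Y537S cells (0 in edgeR without the block, 6 at an unadjusted p under 0.05) DESeq2 gave 2, the replicate block 8, the block with the GC correction 6 and 1 fit over all conditions of the genotype 1. For miR-301b in D538G (2) DESeq2 gave 3, no filter 4, the GC correction 0, the block 5 and both together 5. In WT cells (1) no filter gave 3, the GC correction 2, the block 5, both together 4 and 1 fit over all conditions 2. For miR-331 in WT (6) the GC correction gave 2 and with the block 3, and 1 fit over all conditions 4, without CCNE2 (adjusted p = 0.0744) and RB1 (0.064). For miR-181c in D538G (3) the GC correction gave 1, the block 5 and both 5, and in WT (7) the GC correction gave 4. DESeq2 gave 6 for miR-181c in WT, without CCNE2. There 1 fit over all conditions lost CCNE2 (adjusted p = 0.148) and RB1 (0.0707) and gained CCNE1 (0.04). For the let-7f inhibitor (0 in edgeR, 2 at an unadjusted p under 0.05, 0 in DESeq2) the block gave 2 and with the GC correction 1. Among libraries given the miR-301b mimic in place of the control, D538G against WT gave 4 instead of 7 and Y537S against D538G 1 instead of 2. With the control libraries, DESeq2 gave 3 for Y537S against D538G and 7 instead of 6 for Y537S against WT. For the miR-331 response (1) DESeq2 and DESeq2-type size factors each gave 2, the block 5, and the block with the GC correction 4.

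Reversals came with the GC correction. CCNE2 under miR-301b in Y537S cells, called with the block, went from -0.22 to 0.13 (0.13 with the block too). Under miR-331 in Y537S cells CCNE2 went from -0.48 to 0.23 (0.22 with the block too) and RB1 from -0.45 to 0.11 (0.11 with the block too), and the CCNE2 difference in the miR-331 response from -0.12 to 0.32 with the block and the correction. Leaving out 1 library gave 1 to 3 (miR-301b, D538G), 0 to 2 (miR-301b, WT), 4 to 5 (miR-331, Y537S), 3 to 6 (miR-331, WT), 1 in each case (miR-181c, D538G), 2 to 5 (miR-181c, WT), 3 to 9 (Y537S against WT), 5 to 7 (D538G against WT), 0 to 2 (Y537S against D538G) and 0 to 1 (miR-331 response). Where this leaves 1 library in an arm, that library is assumed to vary like the others. The cause of these shifts was not tested. With 2 clones a genotype, p-values without the block count the difference between those clones as spread. Those with the block set that difference aside. Both kinds lean on the spread shared across genes, so neither measures these 2 clones alone. The comparison of the miR-301b response between Y537S and D538G was chosen after seeing the data. CDK6 and CCNE1, at 6.18 to 22.6 and 7.30 to 20.6 CPM, were the least deeply counted members.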
